A study of Rattus norvegicus with 18 samples.

Results

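Germ cells of the rat embryo were compared between embryonic day (E) 12.5 and E11.5, as primordial germ cells (PGC), from which sperm and oocytes later arise. The comparison used 4 of the 18 RNA-seq libraries of the series, 2 of E12.5 PGC and 2 of E11.5 PGC. Both groups came from rats of the Wistar strain Crlj:WI with the genotype Prdm14-Venus, a fluorescent reporter of the germ line gene Prdm14, and no other allele or agent is named for them. Sex is not labelled on either day, and nothing in the labels says whether a library is 1 embryo or a pool, or whether the 2 libraries of a day came from separate litters, so the p-values measure the spread between libraries. The other 14 libraries (epiblast at 2 earlier stages, and PGC of E9.5, E10.5 and E15.5) entered the model only to estimate the spread. Values are RPKM, reads scaled to gene length and library total, and genes with at least 1 RPKM in at least 2 of the 4 libraries were kept, which left 11742 of 32545 lines of the table. At the edge of that filter, Hspa1b was kept with a second highest value of 1.07 RPKM and Ifit1 was left out with 0.999 RPKM.

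In rodents, PGC migrate through the hindgut to the genital ridges and settle there around the time of these stages. PGC erase most of the methylation of their DNA, and after arrival they switch on genes for RNA regulation, transposon defence and, later, meiosis and gametogenesis. In the mouse, several of these genes are held silent by promoter methylation and by PRC1.6, a repressor complex that contains MAX, MGA and E2F6, until the germ cells reach the gonad.

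The promoters of germ cell genes that rose are shown first, because the values below turn on these genes. Each line gives the 250 bases before the RefSeq gene start on assembly GRCr8, read 5′ to 3′ on the gene's strand, and capitals mark matches to CACGTG, the E-box letters bound by MAX among other factors, or to GCGGGAA, the letters bound by E2F proteins. Ddx4 lies at chr2:46015952-46016201 (minus strand), Stk31 at chr4:79701491-79701740 (plus), Mael at chr13:81029624-81029873 (minus), Mov10l1 at chr7:121949572-121949821 (plus), Dazl at chr9:18193113-18193362 (plus) and Dppa3 at chr4:157523176-157523425 (plus).

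Ddx4: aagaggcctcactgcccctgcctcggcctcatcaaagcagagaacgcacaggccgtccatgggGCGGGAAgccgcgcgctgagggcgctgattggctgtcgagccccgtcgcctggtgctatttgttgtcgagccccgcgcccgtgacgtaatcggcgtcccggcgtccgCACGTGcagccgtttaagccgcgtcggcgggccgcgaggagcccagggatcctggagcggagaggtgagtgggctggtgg

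Stk31: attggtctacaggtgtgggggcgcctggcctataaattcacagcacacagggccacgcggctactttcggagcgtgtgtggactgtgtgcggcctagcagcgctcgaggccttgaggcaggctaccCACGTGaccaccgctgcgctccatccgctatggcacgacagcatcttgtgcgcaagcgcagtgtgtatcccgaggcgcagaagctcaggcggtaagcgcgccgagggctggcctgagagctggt

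Mael: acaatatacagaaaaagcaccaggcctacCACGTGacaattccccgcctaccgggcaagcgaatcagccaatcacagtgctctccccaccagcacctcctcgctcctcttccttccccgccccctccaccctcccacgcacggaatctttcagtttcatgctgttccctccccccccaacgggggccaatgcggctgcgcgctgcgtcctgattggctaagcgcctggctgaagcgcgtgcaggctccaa

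Mov10l1: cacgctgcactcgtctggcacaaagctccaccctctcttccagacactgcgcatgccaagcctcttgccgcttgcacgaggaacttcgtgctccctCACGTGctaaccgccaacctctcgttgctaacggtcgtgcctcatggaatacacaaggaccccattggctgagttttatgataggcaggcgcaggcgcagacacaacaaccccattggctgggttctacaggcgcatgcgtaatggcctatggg

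Dazl: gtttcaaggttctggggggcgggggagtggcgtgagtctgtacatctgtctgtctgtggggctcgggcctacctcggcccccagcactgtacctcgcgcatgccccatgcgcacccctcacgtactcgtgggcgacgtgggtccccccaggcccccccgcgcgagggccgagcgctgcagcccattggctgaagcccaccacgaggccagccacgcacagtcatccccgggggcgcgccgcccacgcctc

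Dppa3: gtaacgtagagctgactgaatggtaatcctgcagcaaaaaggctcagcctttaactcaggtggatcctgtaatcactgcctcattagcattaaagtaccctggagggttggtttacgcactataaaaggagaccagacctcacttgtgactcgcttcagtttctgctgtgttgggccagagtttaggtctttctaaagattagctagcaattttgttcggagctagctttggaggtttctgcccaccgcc

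The first 4 hold an E-box, which starts at -80 in Ddx4, -124 in Stk31, -221 in Mael and -154 in Mov10l1 relative to the gene start, and Ddx4 also holds the E2F letters at -187. In the windows of Dazl and Dppa3, neither set of letters was found. Both strands were searched in the full RefSeq window of 300 bases, which adds 50 bases after the start, the E-box reads the same on both, and the E-box and E2F letters were counted separately. Of 66 tested genes on the lists for gonadal germ cells, piRNA, promoter methylation loss and meiosis, 55 had a promoter in the RefSeq table, and 20 of these (36.4%) held the E-box. The share was 9.87% of 7841 promoters of tested genes and 6.65% of all 27457 promoters. The E2F letters were in 21.8% of the 55 promoters, against 9.14% of those of tested genes and 4.47% of all. Among the 13 list members that rose, 10 had a promoter in the table and 5 of these held the E-box. The E-box was in 13.6% of 472 promoters of all genes that rose and in 11.6% of 276 promoters of genes that fell. The median CpG ratio (observed over expected) was 0.698 in the 55 promoters of list members. It was 0.788 in the 10 promoters of list members that rose, against 0.791 in tested genes and 0.417 in all promoters. These are matches of letters and not evidence of binding.

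In all, 742 genes were higher (6.32% of those tested) and 545 lower (4.64%) at E12.5 than at E11.5, by limma with Benjamini-Hochberg adjusted p under 0.05, which is called passing below. Of these 1287 genes (11.0%), 427 rose and 243 fell by 1 or more in log2 fold change, on the log2(RPKM + 1) scale that understates changes of low genes. Without E12.5 replicate 1, E12.5 replicate 2, E11.5 replicate 1 or E11.5 replicate 2, genes that were higher numbered 227, 169, 247 and 359 and those that were lower 233, 147, 196 and 264. The 2 libraries of one day did not overlap with those of the other in any gene that passed. With 2 libraries a day a gene that passes can hardly overlap, so this adds no support to the calls. The share without overlap among all tested genes is not given here. Upper quartile scaling turned the split round (536 higher and 640 lower), and quantile normalization gave 788 higher and 856 lower, so a direction near the middle of the distribution depends on the scaling. The median of all tested genes was 0.11 as deposited, 0.03 with upper quartile scaling and -0.02 with quantile normalization, and the medians below are to be read against 0.11. Counts of rises and falls in the lists below are to be read against the 6.32% of all tested genes that rose and the 4.64% that fell.

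**Figure D1:**
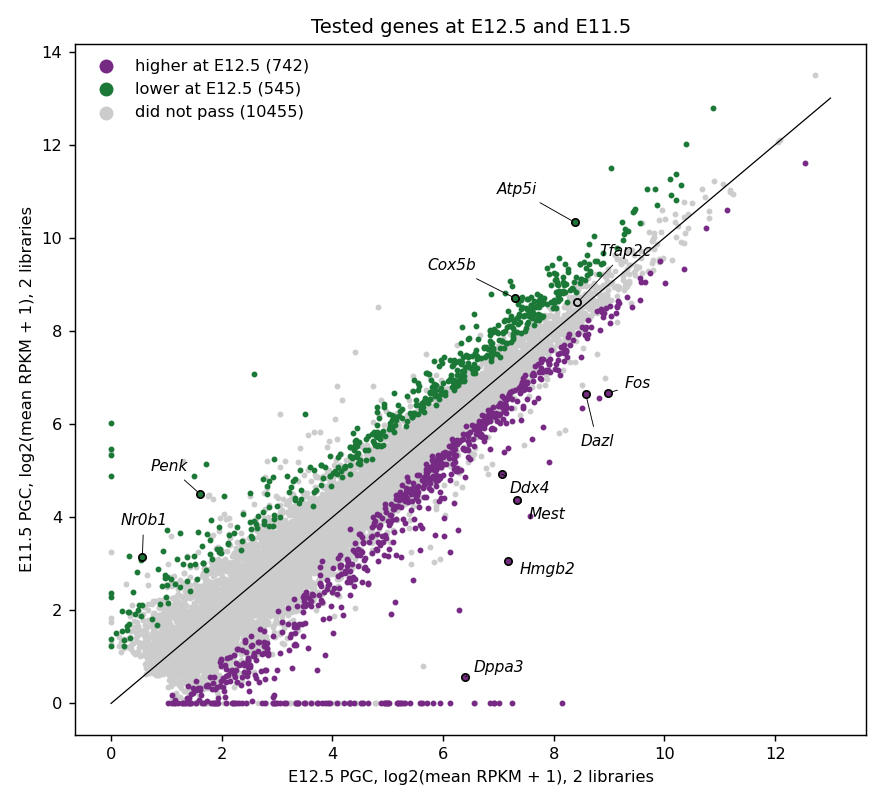
Mean level of each of the 11742 tested genes in the E12.5 libraries (x axis) and in the E11.5 libraries (y axis), as log2(mean RPKM + 1) of 2 libraries each, with the line of equal levels. Genes that passed lie below the line where higher at E12.5 (742) and above it where lower at E12.5 (545), and Dppa3 lies far below it with 83.7 RPKM at E12.5 and 0.491 RPKM at E11.5.

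The libraries of the 2 days differed in depth. Taking the commonest ratio between low RPKM values as a measure, depth was 112% in E12.5 replicate 2 and 22.7% and 22.1% in the E11.5 libraries, each relative to E12.5 replicate 1. Tested genes listed at 0 made up 0.664% and 0.971% at E12.5 and 2.84% and 2.99% at E11.5, and 91 of the 742 genes that rose were listed at 0 in both E11.5 libraries. Such a 0 is not always absence, since Rps6, a ribosomal protein gene that every cell uses, is among them. Rps6 was also listed at 0 in male E15.5 replicate 2 and in both female E15.5 libraries. Many ribosomal protein genes have processed copies that can share reads, and the source of its 0 was not tested. Depth and day cannot be told apart in this comparison. Of the tested genes, 365 were under 1 RPKM in both E11.5 libraries and 155 of these rose, and 130 were under 1 RPKM in both E12.5 libraries and 31 of these fell. Such genes passed the level filter through the higher day alone, Dppa3, Klf4, S1pr1, Timp3 and Esam among the first and Nr0b1, Nexn, Arhgap8 and Hoxd4 among the second. The spread between replicates was similar, with a median absolute log2 difference of 0.218 at E12.5 and 0.251 at E11.5. Since RPKM come from bulk RNA, fewer cells of a type and less RNA per cell cannot be told apart.

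Both defining markers of the settled germ cell rose. Dazl, an RNA-binding protein that licenses germ cells for gametogenesis, had 394 and 369 RPKM in the E12.5 libraries, against 87.2 and 109.9 RPKM in those of E11.5. Ddx4, the RNA helicase known as Vasa, had 139 and 126 RPKM at E12.5, against 23.0 and 35.7 RPKM at E11.5. Both E12.5 libraries stood above both E11.5 libraries in each gene, by 3.87-fold for Dazl and 4.51-fold for Ddx4 in the means. On the log2 scale the changes were 1.95 ± 0.40 (SE, adjusted p = 0.00754 by limma) and 2.17 ± 0.50 (0.0133). Dazl passed without E11.5 replicate 2 (0.0322) but not without E11.5 replicate 1 (0.0712), E12.5 replicate 1 (0.0627) or E12.5 replicate 2 (0.0621), and Ddx4 likewise (0.0368, against 0.114, 0.0919 and 0.0849). With a pseudocount of 0.1 in place of 1, both missed the threshold, Dazl with a log2 fold change of 1.96 (0.362) and Ddx4 with 2.2 (0.151).

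Of 26 tested genes on the list of gonadal germ cell and RNA regulators, 8 rose, 0 fell and 18 did not pass, with a median log2 fold change of 0.96. The share of all tested genes that rose was 6.32%. Stk31, a kinase-like partner of piRNA proteins, had 135 and 136 RPKM at E12.5, against 45.4 and 36.5 RPKM at E11.5 (1.71 ± 0.42). Tex15, which guides methylation of transposons in the fetal male germ line of the mouse, had 40.9 and 32.6 RPKM at E12.5, against 5.85 and 9.86 RPKM at E11.5 (2.12 ± 0.36, adjusted p = 0.00236 by limma). Tex15 also passed in each of the 4 fits without 1 library (0.0072 to 0.0371). The other 4 that rose were low, Rnf17, Adad2, Tex11 and the RNA-binding protein gene Elavl2, with 4.02 to 13.4 RPKM in the E12.5 libraries and 0.474 to 3.93 RPKM in those of E11.5. Among members that did not pass, Brdt, a testis bromodomain gene, had 39.8 and 41.0 RPKM at E12.5 and 45.7 and 46.9 RPKM at E11.5, and Rpl10l had 270.0 and 288 RPKM at E12.5 and 251 and 236 RPKM at E11.5. Tex101, a membrane protein of germ cells, was at 59.7 and 54.0 RPKM at E12.5 and 28.5 and 28.3 RPKM at E11.5 (0.97 ± 0.40, adjusted p = 0.142).

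Several transposon defence genes also rose. piRNAs are short RNAs that guide PIWI proteins to transposon transcripts, and of 21 tested genes of that pathway 6 rose, 0 fell and 15 did not pass, with a median of 0.76. Among all tested genes 6.32% rose. Beside Ddx4, Rnf17 and Tex15, the piRNA genes that rose were Mael, Mov10l1 and Tdrkh. Tdrkh, a Tudor domain protein that tethers PIWI proteins to mitochondria, had 28.7 and 34.2 RPKM at E12.5, against 9.87 and 8.07 RPKM at E11.5 (1.70 ± 0.32, adjusted p = 0.00444 by limma). Mov10l1, the helicase that feeds precursors into piRNA processing, had 28.0 and 32.6 RPKM at E12.5, against 9.96 and 11.5 RPKM at E11.5 (1.42 ± 0.33), and Mael, a piRNA pathway protein of the germ granule, had 18.7 and 20.4 RPKM at E12.5, against 7.04 and 6.84 RPKM at E11.5 (1.37 ± 0.40). The PIWI gene Piwil2 did not pass, at 36.2 and 28.7 RPKM at E12.5 and 18.1 and 19.5 RPKM at E11.5 (0.75 ± 0.38, adjusted p = 0.246). Fkbp6, a co-chaperone of the pathway and its highest member that did not pass, had 104 and 90.2 RPKM at E12.5 and 49.1 and 54.7 RPKM at E11.5.

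The list of 22 tested genes whose promoters lose methylation in mouse germ cells shares most of its rising members with those lists. Of these 22, 6 rose (Dazl, Ddx4, Mael, Mov10l1, Stk31 and Dppa3) and 0 fell, with a median of 0.98. Of 36 meiosis genes that the table holds, 24 passed the level filter, and of these 3 rose (Mael, Stag3 and Tex11), 0 fell and 21 did not pass. Such a share is near the 11.0% of all tested genes that passed in either direction, while 6.32% rose. The median of the 24 meiosis genes was 0.48, with 21 above 0 and 3 below. Stag3, a cohesin of meiotic chromosomes, had 10.3 and 9.77 RPKM at E12.5, against 3.23 and 2.56 RPKM at E11.5. Sycp3 and Hormad1, which build and mark the meiotic chromosome axis, did not pass. Sycp3 had 9.33 and 10.7 RPKM at E12.5 and 4.59 and 2.85 RPKM at E11.5 (1.24 ± 0.41, adjusted p = 0.0668 by limma). Hormad1 had 9.19 and 17.7 RPKM at E12.5 and 6.54 and 5.48 RPKM at E11.5 (0.98 ± 0.46, 0.199). Stra8, the trigger of meiosis, was listed at 0 in all 4 libraries. Among oocyte genes 1 of 8 rose (Elavl2), and Sohlh2, a transcription factor of oocyte and spermatogonial growth, reached 105 and 113 RPKM at E12.5, against 35.7 and 28.7 RPKM at E11.5, without passing (1.73 ± 0.58, 0.0720). Among 6 tested genes of the fetal male germ cell 1 rose, Lefty2, described below, and Nanos2, which directs the male fate, was at 1.27 and 0.987 RPKM at E12.5 and 0 and 0.543 RPKM at E11.5 and was not tested.

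**Figure D2:**
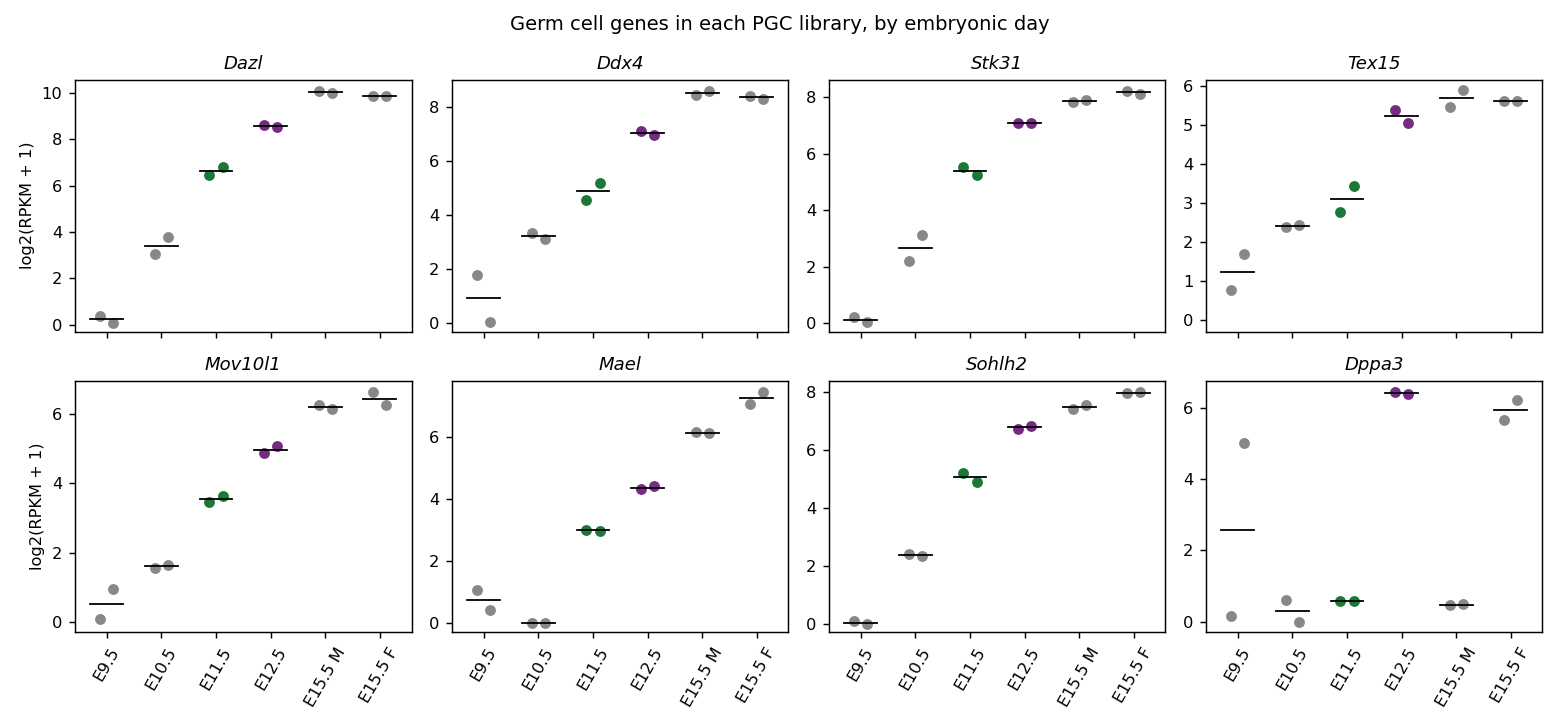
Level of 8 germ cell genes as log2(RPKM + 1) in each of the 12 PGC libraries by embryonic day, with E12.5 in purple, E11.5 in green, other days in grey and a bar at the mean of each pair (M male, F female). Dazl, Ddx4, Stk31, Tex15, Mov10l1, Mael and Sohlh2 lie higher at E12.5 than at E11.5 in both libraries and higher again or alike at E15.5, whereas Dppa3 is near 0 at E11.5 and in male E15.5 PGC.

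The counts of germ cell genes fell whichever library was left out, as did the counts of all genes. In these fits the log2 fold change ranged from 1.79 to 2.12 for Dazl and from 1.86 to 2.47 for Ddx4. Without E12.5 replicate 1, E12.5 replicate 2, E11.5 replicate 1 or E11.5 replicate 2, members that rose numbered 1, 2, 2 and 3 of 26 gonadal germ cell genes, 2, 2, 3 and 3 of 21 piRNA genes, 1, 1, 1 and 3 of 22 promoter methylation genes and 0 of 24 meiosis genes in each. With a pseudocount of 0.1, 2 gonadal germ cell genes and 2 piRNA genes rose, and with array weights 14 and 8. None of the gonadal germ cell, piRNA or meiosis genes that passed were under 1 RPKM in both E11.5 libraries, so none of these calls came through the filter alone.

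Dppa3 had the largest rise by the rule for named genes. It encodes Stella, a maternal factor that guards DNA methylation in the egg and zygote and marks early PGC in the mouse. It had 85.7 and 81.7 RPKM in the E12.5 libraries and 0.485 and 0.498 RPKM in those of E11.5 (5.83 ± 0.95, adjusted p = 0.00199 by limma), and it passed in each fit without 1 library (0.0168 to 0.0263). Across the other PGC stages Dppa3 was not steady, with 0.106 and 31.3 RPKM at E9.5, 0.537 and 0 RPKM at E10.5, 0.389 and 0.401 RPKM in male E15.5 PGC and 49.5 and 73.8 RPKM in female E15.5 PGC. Rodent genomes hold near-identical copies of Dppa3 and the treatment of reads that map to several copies is not given in the sources used here, so its level is uncertain.

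Of 17 PGC identity genes, 1 rose (Dppa3), 1 fell (Ifitm1) and 15 did not pass, with a median of -0.18. The share that passed is near the 11.0% of all tested genes. Tfap2c, a transcription factor that PGC need for their specification, had 349.5 and 337 RPKM at E12.5 and 383 and 396 RPKM at E11.5. Prdm1, or Blimp1, had 38.8 and 29.1 RPKM at E12.5 and 21.4 and 18.9 RPKM at E11.5, and Prdm14, the gene of the reporter, had 11.3 and 17.4 RPKM at E12.5 and 9.46 and 8.70 RPKM at E11.5. Nanos3, an RNA-binding protein that protects PGC from death, had 92.6 and 113 RPKM at E12.5 and 178 and 148 RPKM at E11.5 (-0.67 ± 0.50, adjusted p = 0.447 by limma). Kit, the receptor for survival and migration signals, had 98.5 and 88.9 RPKM at E12.5 and 105 and 109 RPKM at E11.5. Ifitm1, a membrane protein of early PGC, had 392 and 397 RPKM at E12.5 and 689 and 689 RPKM at E11.5 (-0.80 ± 0.22, 0.0294), and it did not pass in any of the 4 fits without 1 library (0.114 to 0.144).

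Among 21 pluripotency genes, Klf4 rose and Nr0b1 fell, a share near the 11.0% of all tested genes that passed. Klf4, a transcription factor of naive pluripotent cells, had 6.13 and 7.26 RPKM at E12.5, against 0.677 and 0.253 RPKM at E11.5 (2.40 ± 0.38, adjusted p = 0.00191 by limma). Nr0b1, or Dax1, an orphan receptor expressed in embryonic stem cells, had 0 and 0.958 RPKM at E12.5, against 10.5 and 5.11 RPKM at E11.5 (-2.58 ± 0.38, 0.00135). Both passed under every alternative run. Pou5f1, or Oct4, had 234 and 254 RPKM at E12.5 and 189 and 227 RPKM at E11.5. Nanog had 100.2 and 133 RPKM at E12.5 and 86.2 and 71.7 RPKM at E11.5, and Sox2 had 119 and 121 RPKM at E12.5 and 158 and 182 RPKM at E11.5. None of these 3 passed (adjusted p = 0.785, 0.655 and 0.286). A p that misses the threshold does not show that a gene was level.

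Writers and erasers of DNA methylation differed gene by gene. Of 23 tested genes, 3 rose (Dppa3, Dnmt3a and Tet1), 2 fell (Parp1 and Apex1) and 18 did not pass, with a median of 0.08. Over all tested genes, 6.32% rose and 4.64% fell. Tet1, which oxidises methylated cytosine, had 25.6 and 24.6 RPKM at E12.5, against 9.72 and 12.1 RPKM at E11.5 (2.30-fold, adjusted p = 0.0398 by limma). Dnmt3a, a de novo methyltransferase, had 15.6 and 17.9 RPKM at E12.5, against 5.47 and 6.28 RPKM at E11.5 (1.37 ± 0.32, 0.0143). The base excision repair genes Parp1 and Apex1 fell less steeply, Parp1 with 224 and 199.9 RPKM at E12.5 and 300.0 and 301 RPKM at E11.5, and Apex1 with 316 and 288 RPKM at E12.5 and 378 and 402 RPKM at E11.5. In the fits without 1 library none of these passed (0.0916 to 0.206 for Tet1, 0.0522 to 0.111 for Dnmt3a, 0.0549 to 0.169 for Parp1, 0.0628 to 0.211 for Apex1). The maintenance genes Dnmt1 (27.8 and 27.2 RPKM at E12.5, 15.7 and 20.9 RPKM at E11.5) and Uhrf1 (23.7 and 18.6 RPKM at E12.5, 29.8 and 22.3 RPKM at E11.5) did not pass. Neither did Dnmt3b (12.8 and 9.42 RPKM at E12.5, 11.2 and 15.9 RPKM at E11.5) or Tet2 (5.83 and 5.02 RPKM at E12.5, 2.17 and 3.15 RPKM at E11.5).

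Of 33 histone methylation genes, 4 rose and 0 fell, with a median of 0.35. That is a share near the 11.0% of all tested genes that passed in either direction, while 6.32% rose. Kdm3a, a demethylase of the repressive mark H3K9, had 58.5 and 60.7 RPKM at E12.5, against 18.8 and 20.1 RPKM at E11.5 (1.57 ± 0.22, adjusted p = 0.000968 by limma), and it passed under every alternative run. Suz12, a subunit of Polycomb complex PRC2, had 34.0 and 34.8 RPKM at E12.5, against 14.8 and 14.5 RPKM at E11.5 (1.18 ± 0.27). Kdm5a, an H3K4 demethylase, and Setd2, the H3K36 methyltransferase, rose by 0.88 each on the log2 scale. Each fit without 1 library kept 1 of the 4 past the threshold, as did the adjustment for genomic span described below. Of 12 genes of the PRC1.6 complex, 2 rose, Rnf2 (177 and 185 RPKM at E12.5, against 126 and 107 RPKM at E11.5) and Tfdp1 (228 and 206 RPKM at E12.5, against 159 and 161 RPKM at E11.5), and 0 fell. Here too the share of all tested genes that rose was 6.32%. Without 1 library, Rnf2 passed only in the fit without E11.5 replicate 1 (0.0309) and Tfdp1 in none (0.0955 to 0.223), and neither passed with the adjustment for span.

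Among 23 imprinted genes, which are expressed from the maternal or the paternal copy only, 2 rose and 2 fell. Of all tested genes, 6.32% rose and 4.64% fell. Mest, a paternally expressed gene, had 166 and 155 RPKM at E12.5, against 29.4 and 9.73 RPKM at E11.5 (3.16 ± 0.62, adjusted p = 0.00554 by limma). The 2 E11.5 libraries differed 3-fold in Mest, and it missed the threshold without E11.5 replicate 2 (0.0646) and without E12.5 replicate 2 (0.0527). Its level at E9.5 was 251 and 191 RPKM and at E10.5 it was 15.5 and 1.73 RPKM. Impact rose to 63.1 and 58.7 RPKM at E12.5, against 33.9 and 38.0 RPKM at E11.5. Grb10, an adaptor of growth factor receptors, fell to 1.85 and 1.35 RPKM, against 6.62 and 3.75 RPKM at E11.5, and Tssc4 fell to 20.5 and 17.7 RPKM, against 32.5 and 34.8 RPKM. The other 19 did not pass, Peg3 among them with 101 and 109 RPKM at E12.5 and 55.0 and 71.2 RPKM at E11.5. Impact and Tssc4 did not pass in any fit without 1 library (0.0642 to 0.147 and 0.0962 to 0.207), and Grb10 passed only without E11.5 replicate 2 (0.0433).

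Of 25 BMP and NODAL genes 3 passed, a share near the 11.0% of all tested genes. Lefty2 and Msx1 rose and the activin receptor gene Acvr2b fell. Lefty2, a secreted inhibitor of NODAL, had 181 and 197 RPKM at E12.5, against 11.2 and 19.5 RPKM at E11.5 (3.59 ± 0.74, adjusted p = 0.00748 by limma). The table holds 2 lines for Lefty2 and copies can share reads, so its level is uncertain. It passed only without E11.5 replicate 2 among the fits without 1 library (0.0284, against 0.0523 to 0.0726), and not with a pseudocount of 0.1 (0.207). At E15.5 it was at 114 and 107 RPKM in male PGC and at 0.793 and 0.892 RPKM in female PGC. Nodal itself had 37.9 and 39.7 RPKM at E12.5 and 31.2 and 37.2 RPKM at E11.5 and did not pass. Msx1, a homeobox gene induced by BMP, had 11.7 and 18.5 RPKM at E12.5, against 2.36 and 1.30 RPKM at E11.5 (2.50 ± 0.45, 0.00342), and missed the threshold without E12.5 replicate 2 (0.0587). Id3, a BMP target at high level, had 581 and 656 RPKM at E12.5 and 577 and 632 RPKM at E11.5. Among 29 receptor, ligand and feedback genes, 1 rose and 2 fell, again a share near that of all tested genes. Dusp6, a phosphatase induced by FGF signals, had 114 and 99.9 RPKM at E12.5, against 41.2 and 61.9 RPKM at E11.5. The retinoic acid-binding protein genes fell, Crabp1 to 34.7 and 27.9 RPKM, against 78.9 and 67.7 RPKM at E11.5, and Crabp2 to 5.68 and 4.62 RPKM, against 15.6 and 11.2 RPKM. Dusp6 passed only without E11.5 replicate 2 (0.0144) and Crabp1 and Crabp2, whose symbol is on 2 lines of the table and whose level is thus uncertain, in no fit without 1 library (0.0542 to 0.144 and 0.0606 to 0.203).

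In the list for adhesion and migration, 3 of 23 rose and 0 fell, a share near the 11.0% of all tested genes that passed. Counting rises alone, the share of all tested genes was 6.32%. Epcam, an epithelial adhesion molecule, had 450.3 and 499.6 RPKM at E12.5, against 321 and 344 RPKM at E11.5 (0.51 ± 0.12). Itgb1, the integrin subunit that PGC use to enter the ridge in the mouse, had 135 and 125 RPKM at E12.5, against 78.6 and 91.4 RPKM at E11.5 (0.61 ± 0.18), and S1pr1, a receptor for a chemotactic lipid, had 3.45 and 2.69 RPKM at E12.5, against 0.337 and 0.231 RPKM at E11.5. Cxcr4, the chemokine receptor that guides PGC, did not pass, with 42.9 and 27.2 RPKM at E12.5 and 17.7 and 16.4 RPKM at E11.5 (0.96 ± 0.56, adjusted p = 0.314 by limma). Of 4 Hox genes tested, only Hoxd4 passed, with 0.728 and 0.823 RPKM at E12.5, against 2.19 and 2.25 RPKM at E11.5. Itgb1 passed in no fit without 1 library (0.0831 to 0.245) and Epcam only without E12.5 replicate 1 (0.0494).

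Of 36 genes of DNA replication and mitosis, 4 rose (Mki67, Mcm4, Cenpf and Bub1), 0 fell and 32 did not pass. This share is near the 11.0% of all tested genes that passed, and the median was 0.21 beside 0.11 for all tested genes. Counting rises alone, the share of all tested genes was 6.32%. Mki67, the proliferation antigen Ki-67, had 36.4 and 44.2 RPKM at E12.5, against 18.6 and 19.8 RPKM at E11.5 (1.03 ± 0.20, adjusted p = 0.00498 by limma), and missed the threshold without E12.5 replicate 2 (0.0708). Pcna, the replication clamp, had 575 and 569 RPKM at E12.5 and 450.1 and 524 RPKM at E11.5 and did not pass. Of 10 genes of the G1 machinery, the kinase gene Cdk2 (46.4 and 49.6 RPKM at E12.5, against 28.9 and 24.7 RPKM at E11.5) and the pocket protein gene Rbl2 rose. Among 19 survival and death genes, 2 rose and 1 fell, beside 6.32% and 4.64% of all tested genes. Mdm2, a ubiquitin ligase gene, had 108 and 119.5 RPKM at E12.5, against 67.7 and 63.3 RPKM at E11.5, and Bad, which promotes death, fell to 22.4 and 24.5 RPKM at E12.5, against 54.2 and 45.5 RPKM at E11.5. Without E12.5 replicate 1, E12.5 replicate 2, E11.5 replicate 1 or E11.5 replicate 2, members that rose numbered 1, 0, 2 and 1 of the 36, 0 of the 10 in each, and 1, 0, 1 and 0 of the 19.

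Of the metabolic lists, only that of oxidative phosphorylation held falls that passed. Of 22 genes of glycolysis and pyruvate use, 2 rose and 0 fell, a share near the 11.0% of all tested genes that passed. Counting rises alone, the share of all tested genes was 6.32%. Ldha, lactate dehydrogenase, had 272 and 265 RPKM at E12.5, against 164 and 168 RPKM at E11.5 (0.69 ± 0.13, adjusted p = 0.00326 by limma), and passed under every alternative run. Slc16a1, the lactate and pyruvate carrier MCT1, had 288 and 249.7 RPKM at E12.5, against 138 and 145 RPKM at E11.5 (0.91 ± 0.17), and missed the threshold without E12.5 replicate 1 (0.0555). Of 46 nuclear genes of oxidative phosphorylation, 0 rose, 23 fell and 23 did not pass, with a median of -0.52. The share of all tested genes that fell was 4.64%. Cox5b, a subunit of cytochrome c oxidase, had 164 and 150.5 RPKM at E12.5, against 419.7 and 409 RPKM at E11.5 (-1.39 ± 0.13, 5e-05), and passed under every alternative run. Cox6b1, of the same complex, had 616 and 581 RPKM at E12.5, against 1299 and 1299.7 RPKM at E11.5 (-1.12 ± 0.18). Other subunits of the same machinery did not pass, among them Ndufs1 of complex I (171 and 169 RPKM at E12.5, 162 and 125 RPKM at E11.5), Sdha of complex II (343 and 375 RPKM, 336 and 330.4 RPKM) and Atp5b of the ATP synthase (1361 and 1404 RPKM, 1438 and 1464 RPKM). With quantile normalization Atp5b turned to a rise of 0.39 (adjusted p = 0.0179). Of 12 respiratory chain genes encoded in the mitochondrion itself, a list added after values were seen, 1 rose (Mt-nd1, adjusted p = 0.0445) and 0 fell, with a median of 0.00. Mt-nd1 passed in no fit without 1 library (0.0994 to 0.234), and 0 of the 12 rose with upper quartile scaling and 4 with quantile normalization.

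Ribosomal protein genes, also added after values were seen, fell alongside. Of 58 tested, 31 fell, 3 rose and 24 did not pass, with a median of -0.68, while 4.64% of all tested genes fell. Rpl37a had 32.0 and 27.1 RPKM at E12.5, against 84.3 and 86.6 RPKM at E11.5 (-1.50 ± 0.23, adjusted p = 0.00142 by limma). The abundant Rplp0 had 1164 and 1178 RPKM at E12.5 and 1520.3 and 1393 RPKM at E11.5 and did not pass (-0.31 ± 0.11, 0.0890). Many of these genes have processed copies in the genome that can share reads, so single members are uncertain. Without E12.5 replicate 1, E12.5 replicate 2, E11.5 replicate 1 or E11.5 replicate 2, genes that fell numbered 12, 6, 12 and 12 of 46 for oxidative phosphorylation and 15, 9, 15 and 16 of 58 for ribosomal proteins. With the 12 PGC libraries alone they numbered 14 and 16.

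**Figure D3:**
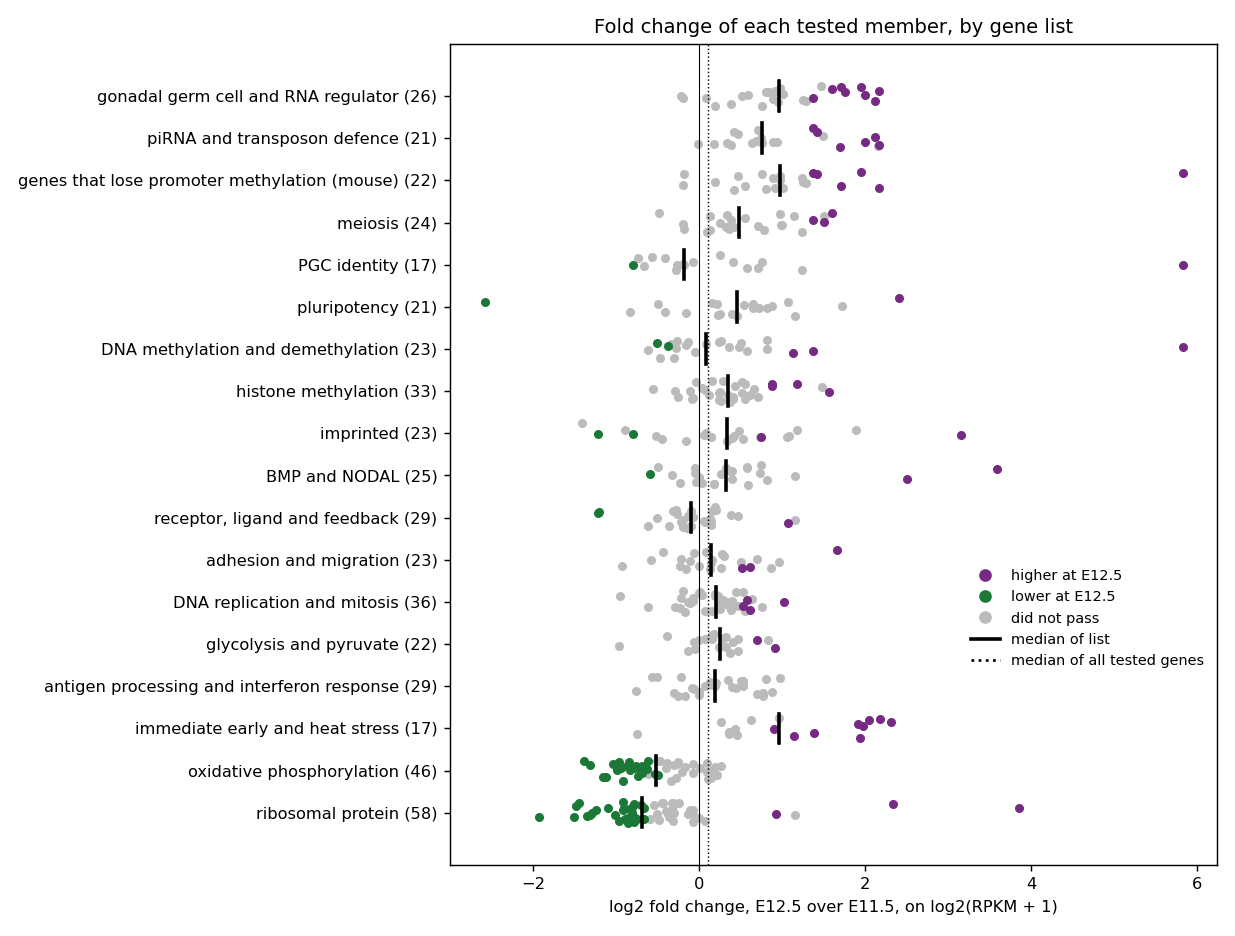
Log2 fold change, E12.5 over E11.5 on log2(RPKM + 1), of each tested member of 18 gene lists (number tested in brackets), with genes that rose in purple, genes that fell in green and those that did not pass in grey, a black bar at the median of each list and a dotted line at the median of all tested genes (0.11). The gonadal germ cell list (median 0.96) lies to the right and those for oxidative phosphorylation (-0.52) and ribosomal proteins (-0.68) to the left.

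The oxidative phosphorylation and ribosomal protein genes had short median genomic spans, and fold changes over the protein-coding genes tested differed with span. The median genomic span, taken from RefSeq, was 7937 bp for the oxidative phosphorylation genes and 3277 bp for the ribosomal protein genes, against 23858 bp for 10006 protein-coding genes tested. Over 10 bins of span the median log2 fold change was lowest in the shortest bin (-0.16) and highest in the ninth (0.33). The shortest bin holds the median span of the ribosomal protein genes. Bin 2, with a median of -0.08, holds that of the oxidative phosphorylation genes. Genes that passed were 56 higher and 149 lower in the shortest bin and 50 higher and 6 lower in the longest. The summed level of the 46 oxidative phosphorylation genes was 15429 and 12833 RPKM at E9.5, 31923 and 26339.9 RPKM at E10.5, 20338 and 20180.3 RPKM at E11.5, 13846 and 13258 RPKM at E12.5, 14819 and 13281 RPKM in male E15.5 PGC and 12764 and 16236 RPKM in female E15.5 PGC. The E10.5 and E11.5 libraries were thus the high ones. After the fold changes were adjusted for span, on the 10076 genes that have one, 330 genes were higher and 346 lower, against 573 and 385 on the same genes without the adjustment. Of 43 oxidative phosphorylation genes with a span 16 fell, against 20 without the adjustment, and of 50 ribosomal protein genes with a span 20 fell, against 24. Among 26 gonadal germ cell genes 7 rose, against 9 without the adjustment, among 21 piRNA genes 4, against 7, among 22 promoter methylation genes 5, against 7, and among 24 meiosis genes 0, against 3. The median span of the gonadal germ cell genes was 56715 bp. The part of span and depth in these results was not tested beyond these values.

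**Figure D4:**
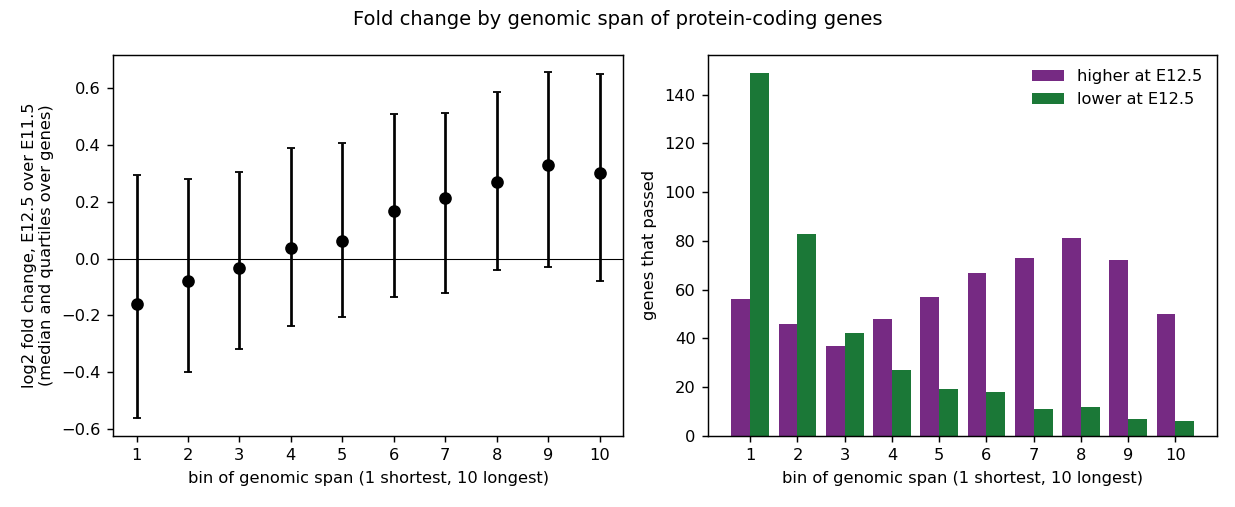
Protein-coding genes tested in 10 bins of genomic span, from the shortest (1) to the longest (10). The left panel gives the median log2 fold change, E12.5 over E11.5, with the quartiles over genes as bars, and the right panel the number of genes that were higher or lower at E12.5, which are 56 and 149 in bin 1 and 50 and 6 in bin 10.

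A further group that rose was that of immediate early and heat stress genes, which respond within minutes to growth signals, handling or stress. Of 17 tested, 9 rose and 0 fell, with a median of 0.96, while 6.32% of all tested genes rose. Fos, a subunit of the transcription factor AP-1, had 481 and 525 RPKM at E12.5, against 90.7 and 110.1 RPKM at E11.5 (2.32 ± 0.45, adjusted p = 0.00517 by limma). Dusp1, a stress-induced phosphatase, had 180.2 and 208 RPKM at E12.5, against 50.2 and 49.6 RPKM at E11.5 (1.94 ± 0.28, 0.000989). The others were Jund, Jun, Fosb, Klf6, Atf3, Dnajb1 and Hspa1b, of which Atf3 and Hspa1b were listed at 0 in both E11.5 libraries. Egr1 did not pass, with 45.5 and 46.4 RPKM at E12.5 and 26.6 and 41.7 RPKM at E11.5. The summed level of the 17 genes was 1936 and 2019.8 RPKM at E12.5 and 1098 and 1024 RPKM at E11.5, and in E15.5 PGC it was 1752 and 1691 RPKM in males and 1193 and 1226 RPKM in females. Fos missed the threshold without E11.5 replicate 1 (0.0502) and without E12.5 replicate 2 (0.0587), and 5, 4, 4 and 6 of the 17 rose without E12.5 replicate 1, E12.5 replicate 2, E11.5 replicate 1 and E11.5 replicate 2. With the adjustment for span, 10 rose. How long the cells were handled is not labelled, and its part in the result was not tested.

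Antigen processing and interferon response genes did not pass in either direction (0 of 29, with 2 at an unadjusted p under 0.05 and a median of 0.19), while 1 rose in some alternatives (with array weights, for example) and 1 fell in others (with no filter on low values, for example). Psme1, a proteasome activator and the highest of them, had 479 and 495 RPKM at E12.5 and 585 and 578 RPKM at E11.5.

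The largest rises outside the lists were of mixed kinds. The rule took the 15 largest of each direction among genes whose higher group averaged 5 RPKM or more, and passed over 61 lines among the rises and 13 among the falls that were small RNA genes, uncharacterised loci or symbols on several lines. Small RNA symbols made up 254 tested lines, of which 52 rose and 5 fell, and 46 of the 52 were listed at 0 in both E11.5 libraries. Hmgb2, a chromatin protein of dividing cells, had 138 and 149.9 RPKM at E12.5, against 7.15 and 7.63 RPKM at E11.5 (4.11 ± 0.87, adjusted p = 0.00829 by limma). At E9.5 it was at 143 and 51.7 RPKM, at E10.5 at 121 and 108 RPKM, in male E15.5 PGC at 71.1 and 72.8 RPKM and in female E15.5 PGC at 4.18 and 6.59 RPKM. Hmgb2 passed only without E11.5 replicate 2 among the fits without 1 library (0.0466, against up to 0.0759). Insig1, a brake on sterol synthesis, had 69.5 and 83.3 RPKM at E12.5, against 10.3 and 14.2 RPKM at E11.5 (2.55 ± 0.38, 0.00143). Anxa1, a phospholipid-binding protein, had 27.9 and 40.1 RPKM at E12.5, against 2.2 and 4.85 RPKM at E11.5 (2.99 ± 0.38, 0.000591), and Ctsw, a cathepsin, had 30.8 and 33.5 RPKM, against 3.62 and 1.97 RPKM (3.16 ± 0.55, 0.00275). Each of these 3 passed in all 4 fits without 1 library. Timp3, an inhibitor of matrix proteases, had 4.42 and 8.96 RPKM at E12.5, against 0.172 and 0.0885 RPKM at E11.5, and missed the threshold without E12.5 replicate 2 (0.0593). Sh3d21, Tnfsf13 and Defb21 were listed at 0 in both E11.5 libraries and reached 4.89 to 13.2 RPKM at E12.5. Chd9, a chromatin remodeller, differed between the E12.5 libraries (63.0 and 22.4 RPKM, against 4.89 and 5.64 RPKM at E11.5) and passed in no fit without 1 library.

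Penk, the precursor of the enkephalin peptides, had the largest fall, to 1.35 and 2.77 RPKM at E12.5, against 21.7 and 21.3 RPKM at E11.5 (-2.92 ± 0.41, adjusted p = 0.000968 by limma). Arhgap8 had 0.308 and 0.447 RPKM at E12.5, against 6.78 and 5.28 RPKM at E11.5 (-2.35 ± 0.34), and Nexn, an actin-binding protein, had 0.848 and 0.05 RPKM, against 5.14 and 9.76 RPKM (-2.54 ± 0.41). Hnrnpa0, an RNA-binding protein, had 5.74 and 7.59 RPKM at E12.5, against 43.9 and 29.7 RPKM at E11.5 (-2.29 ± 0.36), and the calcium-binding S100a11 had 4.59 and 6.83 RPKM, against 28.3 and 26.3 RPKM (-2.09 ± 0.38). These 5 passed in all fits without 1 library. So did RT1-CE7, an MHC class I gene that is not on the antigen processing list, with 1.24 and 1.49 RPKM at E12.5, against 12.2 and 11.2 RPKM at E11.5 (-2.42 ± 0.47, 0.00509). Genes of its family are alike in sequence and can share reads, so its level is uncertain. Mt3, a metallothionein, had 2.01 and 2.95 RPKM at E12.5, against 12.6 and 16.2 RPKM at E11.5, and the antioxidant enzyme gene Gpx2 had 3.67 and 5.72 RPKM, against 25.9 and 17.9 RPKM. Ass1, an enzyme of arginine synthesis, had 2.60 and 1.33 RPKM at E12.5, against 12.7 and 10.8 RPKM at E11.5. Atp5i, a small subunit of the ATP synthase, was the most abundant, at 384 and 278 RPKM at E12.5, against 1215 and 1364 RPKM at E11.5 (-1.98 ± 0.22, 0.000217), and its span is 1202 bp. Mt3 passed in no fit without 1 library (0.0689 to 0.129), Gpx2 missed the threshold without E12.5 replicate 1 (0.0754) or E11.5 replicate 1 (0.0749), and Ass1 without E12.5 replicate 2 (0.0792) or E11.5 replicate 1 (0.0511).

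The germ cell markers matched the labelled cell type. Dazl, Ddx4, Tfap2c, Nanos3, Kit and Pou5f1 were above 20 RPKM in all 4 libraries and Prdm1 above 18. Some defining genes of other cells were near 0: Foxl2 and Upk3b of the gonadal soma were listed at 0 in all 4, Gata4 reached at most 0.257 RPKM and the leukocyte gene Ptprc was listed at 0. Others were not, such as Lhx9 of the gonadal soma, with 6.79 and 6.16 RPKM at E12.5 and 6.93 and 6.36 RPKM at E11.5. The macrophage gene Adgre1 had 1.71 and 2.72 RPKM at E12.5 and 2.56 and 2.90 RPKM at E11.5. Summed over 17 genes of gonadal soma and coelomic epithelium, the level was 13.6 to 21.6 RPKM at E12.5 and 17.6 to 22.1 RPKM at E11.5, and 10 of the 17 were under 1 RPKM in all 4 libraries. In the endothelial list of 14 genes the sum was 11.0 to 23.6 RPKM at E12.5 and 4.01 to 6.67 RPKM at E11.5, and Esam, an adhesion molecule of endothelium, rose to 4.94 and 4.09 RPKM, against 0.416 and 0.599 RPKM. The endoderm gene Foxa2 was listed at 0 in all 4 libraries. Summed over 19 genes of hindgut and endoderm the level was 102 to 106 RPKM at E12.5 and 99.3 to 126 RPKM at E11.5, with Cldn6 and Krt18 the most abundant, and 9 of the 19 were under 1 RPKM in all 4 libraries. In the list for mesonephros and neural crest Osr2, a transcription factor of mesenchyme, rose to 5.46 and 4.23 RPKM, against 0 and 0.0750 RPKM at E11.5, and the list summed to 9.83 to 12.7 RPKM at E12.5 and 5.39 to 7.11 RPKM at E11.5. Mesenchyme genes summed to 3.10 to 12.9 RPKM at E12.5 and 6.08 to 10.9 RPKM at E11.5, and macrophage genes to 3.81 to 4.30 RPKM at E12.5 and 4.10 to 5.10 RPKM at E11.5, and none of either list passed. Embryonic globins stood out in 1 library only. Hbz had 226 RPKM in E12.5 replicate 1 and 1.08 RPKM in E12.5 replicate 2, and was listed at 0 in both E11.5 libraries. Erythroid genes summed to 450.5 RPKM in that library and 5.06 RPKM in E12.5 replicate 2, against 10.9 to 14.7 RPKM at E11.5. Hbe1 had 97.4 and 0 RPKM at E12.5 and 1.46 and 0 RPKM at E11.5. Hbz passed in the model of all libraries (4.44 ± 1.33, adjusted p = 0.0449), but not without E12.5 replicate 1 (1.05, 0.368). The part of such cells in the results above was not tested, and Dazl, Ddx4 and Dppa3 were alike in both E12.5 libraries.

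The sexes could differ between the days, since sex is not labelled. Eif2s3y, a Y-linked gene, had 33.4 and 30.0 RPKM at E12.5 and 32.1 and 31.4 RPKM at E11.5, with 136 and 151 RPKM in male E15.5 PGC and 0 and 0.133 RPKM in female E15.5 PGC. All 4 libraries thus lay between the sexes of E15.5 at about the same level. Xist was not analysed here.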

How the data were processed

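Per the labels' protocols, PicoPure extraction and SMART-Seq v4 amplification gave the cDNA. The authors deposited RPKM values in 1 table of 18 libraries. Named without role or order in the submitters' processing notes are the build rn6, Cufflinks 2.2.1, TopHat2 2.1.0, cutadapt 1.14 and bcl2fastq 2.18.0.12. Which annotation was used, whether strand was used and how reads with several matches were treated is not given in the sources used here. RPKM hold no read counts, and relative depth was read from the commonest ratio between libraries of values under 50 RPKM (96 to 162 genes per library), on the assumption that it comes from genes with equal small read numbers.

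Values were used as log2(RPKM + 1). limma 3.58.1 in R 4.3.3 (eBayes with trend, two-sided) was fitted to 18 libraries as 8 groups (10 residual degrees of freedom), and p-values were adjusted over the 11742 tested genes by the Benjamini-Hochberg method. The fit was tested on simulated data with the same spread for a gene in all groups. There, 36% of genes changed by 1 (log2) and 83% of those changed by 2 were called, with 7 unchanged genes called. The simulation held no difference in depth between the days, so it cannot speak to that difference. Same-numbered replicates of the 2 days did not deviate together (r = 0.000557 across genes, with 2 pairs only) and were not treated as pairs. A fit without 1 library assumes that the lone library of its day varies like the other groups.

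The comparison, the 31 lists and the rule for named genes were chosen with earlier results of these data known. The rule names the 15 largest changes in each direction (at least 5 RPKM in the higher group, no overlap), per list the 2 largest in each direction and the most abundant member among those not passing, and fixed germ line genes. Further list members were named after their values were seen, and some genes that the rule names are not reported here. Lists give counts and medians, with no set test. Of the list entries, 58 were not matched to the table and 10 were matched through an older symbol. Promoters, spans and older symbols come from RefSeq (GRCr8), matched by symbol, and no coordinates of rn6 are used. Python 3.11.15 with matplotlib 3.10.9 drew the figures.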

Additional observations from a re-analysis of the deposited data

How the results depend on the processing

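Of 73 named genes that passed, 21 passed under every alternative run and 23 in all 4 fits without 1 library, 28 passed in none of those 4, and 1 gene that had not passed, Atp5b, turned from -0.07 to 0.39 with quantile normalization. Calls lost numbered 19 with a pseudocount of 0.1, 16 with the adjustment for gene span, which was chosen after seeing the data, and 8 with the replicate block. The counts of 742 higher, 545 lower and 670 changed by 1 or more (log2) stayed within 1.5 times under the other filters, both lower and higher pseudocounts and the scalings, with these exceptions. They were 401, 282 and 443 with the 12 PGC libraries alone, 1314, 866 and 948 with array weights, and 330, 346 and 350 with the adjustment for span, which was made on the 10076 genes with a span, where the same counts without it were 573, 385 and 464. A pseudocount of 5 left 395 changed by 1 or more, and quantile normalization gave 856 lower. Without 1 library they ranged from 169 to 359, 147 to 264 and 237 to 464, and the lowest were without E12.5 replicate 2. With the replicate number as a block, the replicate block fit gave 644, 479 and 619. The cause of these differences was not tested, except that fits without 1 library hold fewer samples. If the estimate of depth holds, 1 read is worth 4 to 5 times more RPKM at E11.5 than at E12.5, and low genes are measured less finely there.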
